A study of Mus musculus with 4 samples.

Results

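Glucose uptake and glycolysis were followed through 10 genes, the transporters Slc2a1 and Slc2a3 and the enzymes encoded by Hk1, Hk2, Pfkl, Aldoa, Pgk1, Eno1, Pkm and Ldha. Every probe set (a group of short probes read out as 1 value) whose only annotated gene was one of these was taken. This gave 23 of the 45037 probe sets on the array, for 9 of the 10 genes and of the 18193 genes with such a probe set. The signal of Eno1, which encodes enolase, was not analysed here. Of the 23, 20 lay at or above a signal filter of 4.76, the 40th percentile of all probe sets with 1 gene symbol. The other 3, of Slc2a3 and Hk1, lay below it and were not tested.

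Glycolysis breaks glucose down to pyruvate in the cytosol. Glucose enters through facilitative transporters of the Slc2a family, is trapped by hexokinase, is committed to the pathway by phosphofructokinase, is split by aldolase, and yields ATP at phosphoglycerate kinase and pyruvate kinase, after which lactate dehydrogenase turns pyruvate into lactate. Thymocytes raise glucose uptake and glycolysis while they proliferate after the pre-T cell receptor signal, and most double positive cells are then small and quiescent. Growth signals through Akt, mTOR and Myc and the hypoxia-inducible factors are known inducers of these genes in lymphocytes.

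The samples were double positive thymocytes, which carry both CD4 and CD8, from 2 Ikf/f CD4-Cre+ mice and 2 Ikf/f CD4-Cre- mice, with 1 Affymetrix array per mouse. All 4 mice were Ikf/f. In the Cre+ mice a Cre transgene driven as CD4-Cre is meant to delete Ikaros, the zinc finger protein encoded by Ikzf1, and the Cre- mice carry no Cre. No Cre+ mice of another Ikzf1 genotype were part of the design, so effects of Cre and of Ikaros loss cannot be told apart. The labels state neither age nor sex nor how the cells were isolated.

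Values are log2 signals. The brighter Ikzf1 probe set averaged 10.71 in Cre+ mice and 12.24 in Cre- mice and fell by 1.53 (limma adjusted p = 0.0240, or 0.0717 to 0.164 with 1 array left out). The other Ikzf1 probe set differed by −0.22. The defining double positive genes Cd4, Cd8a, Cd8b1, Rag1, Rag2 and Dntt read between 10.34 and 13.51 on all arrays. Of all 11639 genes tested, 160 passed in limma. This number was 43 without Cre+ sample 1, 99 without Cre+ sample 2, 14 without Cre- sample 1 and 3 without Cre- sample 2. With 2 arrays a group, the smallest p of an exact permutation test for a single gene is 0.333, so every call rests on the spread shared across genes.

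None of the 9 glycolysis and glucose uptake genes passed the test. By the brightest probe set of each gene, 7 of the 9 read higher in the Cre+ mice. Pfkl, the liver-type subunit of phosphofructokinase, came closest with a difference of 0.82 on the log2 scale (Cre+ minus Cre-), followed by Hk2, the inducible hexokinase, with 0.71. Slc2a3, Aldoa, Hk1, Pgk1 and Slc2a1 differed by 0.23 to 0.45. Pkm and Ldha, the enzymes that make pyruvate and lactate, differed by −0.06 and −0.07. The median of the 9 genes was 0.34, against 0.06 over all genes tested. This direction depended on the probe sets. With only those that carry no suffix for binding several transcripts, 5 of the genes remained. Pfkl, Slc2a1 and Pkm then differed by −0.41, −0.33 and −0.06, Hk2 and Pgk1 by 0.71 and 0.14, and the median was −0.062.

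In limma, 0 of the 9 were called, where 1.37% of all genes were called in either direction and 1.11% higher. At an unadjusted p under 0.05, 5 of the 9 read higher and 0 lower, where 14.3% of all genes read higher at that level and 20.6% read either higher or lower. Both Cre+ arrays lay above both Cre- arrays for 7 of the 9, where 34.2% of all genes did so. These 7 include Slc2a1 and Pfkl, which each have a probe set with both Cre+ arrays below both Cre- arrays. Ldha was the 1 gene with both Cre+ arrays below both Cre- arrays, a pattern of 18.7% of all genes, and Pkm overlapped between the groups. The difference was above 0 for 7 of the 9, where this held for 61.0% of all genes. It was at least 0.5 for Pfkl and Hk2, where 9.37% of all genes reached that size.

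The 20 probe sets past the filter were also tested one by one. In limma 0 were called, where 0.868% of all probe sets were called and 0.639% higher. At an unadjusted p under 0.05, 11 read higher and 2 lower. Of all probe sets, 12.1% read higher at that level and 21.2% read either higher or lower. The difference was above 0 for 15 of the 20, against 56.9% of all probe sets, and these 15 had both Cre+ arrays above both Cre- arrays, against 31.5%. In 4 of the 20, which were 2 of Slc2a1, 1 of Pfkl and that of Ldha, both Cre+ arrays lay below both Cre- arrays, against 21.8% of all probe sets. The 2 lower at an unadjusted p under 0.05 were 1 of Slc2a1 and 1 of Pfkl, each opposite in sign to the brightest probe set of its gene. The difference reached 0.5 for 2 Pfkl probe sets and that of Hk2, where 8.30% of all did. Probe sets of 1 gene share transcripts, so these are not independent measurements.

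**Figure D1:**
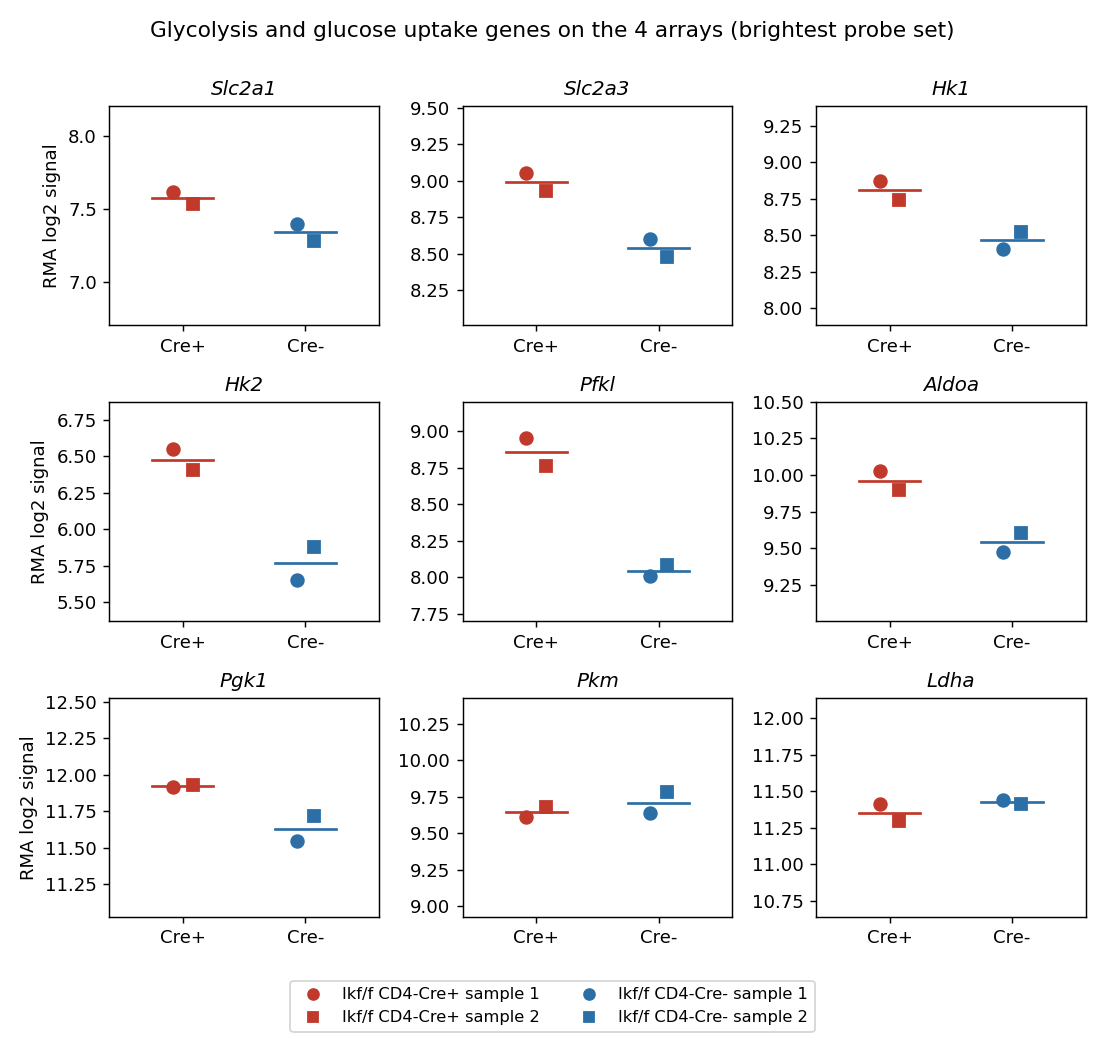
RMA log2 signal of the brightest probe set of each of the 9 genes on each of the 4 arrays, Cre+ on the left and Cre- on the right of each panel; each vertical axis spans 1.5 log2 units and bars mark the group means. The 2 Cre+ arrays lie above the 2 Cre- arrays in 7 panels, Ldha lies the other way and Pkm overlaps.

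The transporters gave small differences, and for Slc2a1 the sign depended on the probe set. Slc2a3 encodes GLUT3, a high-affinity glucose transporter of neurons and lymphocytes. Its brightest probe set read 9.05 and 8.93 in Cre+ samples 1 and 2, against 8.60 and 8.48 in Cre- samples 1 and 2. The groups did not overlap, and the difference was 0.45 ± 0.12 (SE, n = 2 per group; limma adjusted p = 0.131). A second Slc2a3 probe set differed by 0.49 ± 0.13 (adjusted p = 0.123 in the fit of single probe sets). The remaining 2 read between 3.20 and 3.55 on all arrays, near the bottom of the signal range, so the Slc2a3 values rest on probe sets that can bind several transcripts.

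Slc2a1 encodes GLUT1, the basal glucose transporter of most cells and the one that activated T cells bring to their surface. Its brightest probe set read 7.62 and 7.53 in Cre+ samples, against 7.40 and 7.28 in Cre- samples, a difference of 0.23 ± 0.12 (SE; limma adjusted p = 0.334; 95% interval −0.06 to 0.53). A second Slc2a1 probe set read 6.52 and 6.61 in Cre+ samples, against 6.90 and 6.90 in Cre- samples. This was a difference of −0.33 ± 0.12 (adjusted p = 0.197), opposite in sign, with no overlap between groups in either case. The third differed by −0.07 ± 0.12, and the mean of all 3 by −0.06, so no direction can be given for Slc2a1.

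The hexokinases phosphorylate glucose as it enters the cell. Hk2 encodes the isoform that is induced by insulin, growth signals and hypoxia. It read 6.55 and 6.41 in Cre+ samples 1 and 2, against 5.66 and 5.88 in Cre- samples 1 and 2. Both Cre+ arrays lay above both Cre- arrays, and the group means of 6.48 ± 0.10 and 5.77 ± 0.16 (SD, n = 2 each) were further apart than the arrays of either group. The difference of 0.71 ± 0.14 (SE) amounts to 1.63-fold (95% interval 1.29 to 2.06) and missed the threshold (limma adjusted p = 0.0750). Hk2 had 1 probe set, which carries no mark of binding several transcripts.

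Hk1, the constitutive hexokinase, read 8.88 and 8.74 in Cre+ samples, against 8.41 and 8.52 in Cre- samples. Its difference was 0.34 ± 0.12 (limma adjusted p = 0.200). A dimmer Hk1 probe set, below the filter, read 4.81 and 5.07 in Cre+ samples, against 4.82 and 4.14 in Cre- samples, and its groups overlapped. Another probe set is annotated to Hk1 together with Rpl17 and pseudogenes, 6 symbols in all, and was left out by the rule. It differed by 0.30, at signals of 12.90 to 13.35.

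Pfkl, whose enzyme makes the committed step, had the largest difference of the 9 genes and also probe sets that disagreed. The brightest read 8.96 and 8.76 in Cre+ samples 1 and 2, against 8.01 and 8.08 in Cre- samples 1 and 2. The groups stood apart by far more than the arrays within them. The difference of 0.82 ± 0.13 (SE), or 1.76-fold (95% interval 1.42 to 2.19), lay just outside the threshold (limma adjusted p = 0.0540). It passed with an intensity trend in the variance prior (0.0478), with a robust prior (0.0435) and without the signal filter (0.0482).

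A second Pfkl probe set differed by 0.70 ± 0.12 (adjusted p = 0.0641), with 8.35 and 8.23 in Cre+ samples against 7.63 and 7.55 in Cre- samples. The third read 6.54 and 6.42 in Cre+ samples, against 6.96 and 6.83 in Cre- samples, and thus differed the other way, by −0.41 ± 0.13 (adjusted p = 0.158). It is the only Pfkl probe set without a mark of binding several transcripts. The others carry the suffix _a_at, which was pooled here with _s_at and _x_at. Which of the 3 reads Pfkl most specifically was not tested. Which part of the transcript each reads was not analysed here, and the difference between probe sets was not tested. With the mean of all 3, Pfkl differed by 0.37 (limma adjusted p = 0.148).

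**Figure D2:**
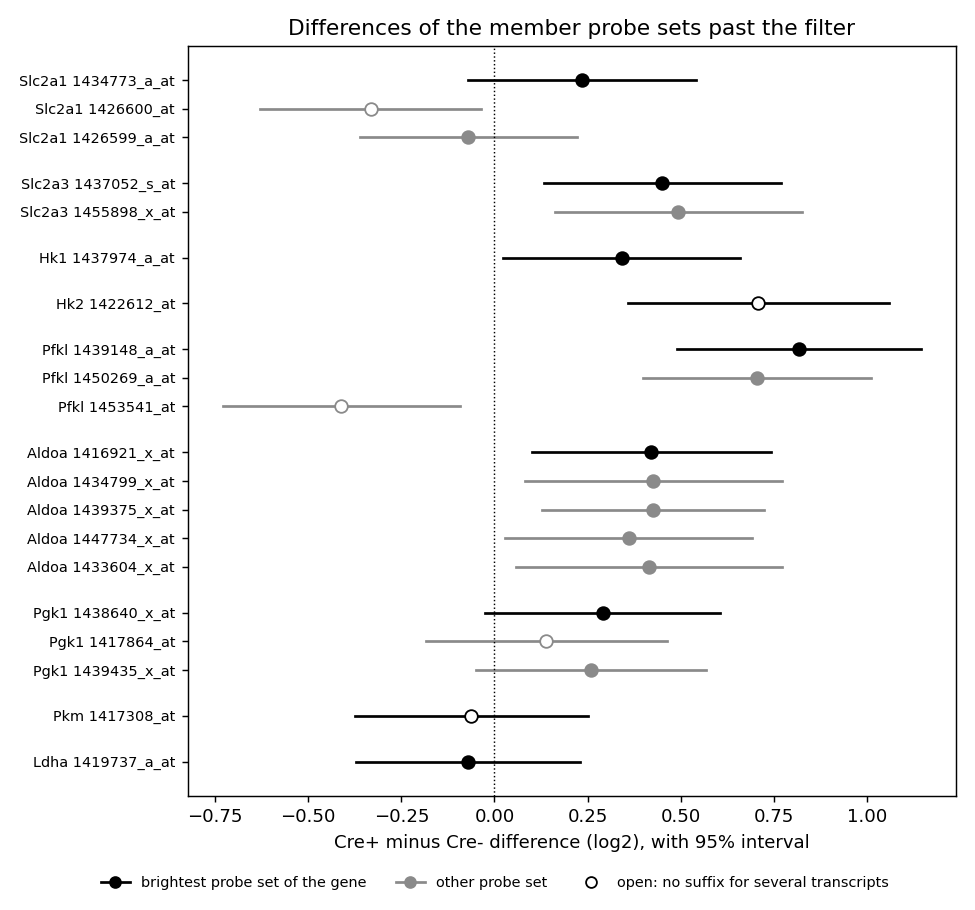
Cre+ minus Cre- difference on the log2 scale for each of the 20 probe sets past the filter, with its 95% interval, in the fit of single probe sets; black marks the brightest probe set of a gene, grey the others, and open circles the probe sets without a suffix for binding several transcripts. The 5 Aldoa and 3 Pgk1 probe sets share a sign, whereas those of Slc2a1 and Pfkl lie on both sides of 0.

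Aldoa encodes aldolase A, which splits fructose bisphosphate into the triose phosphates. Its brightest probe set read 10.03 and 9.89 in Cre+ samples, against 9.48 and 9.61 in Cre- samples, a difference of 0.42 ± 0.12 (SE; limma adjusted p = 0.150). The other 4 differed by 0.36 to 0.43, with adjusted p-values of 0.133 to 0.207 in the fit of single probe sets. In all 5 both Cre+ arrays lay above both Cre- arrays. All 5 carry a suffix for probes shared with other transcripts, so they are neither independent of each other nor certain to read Aldoa alone.

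Pgk1, which encodes the first ATP-yielding enzyme of the pathway, read 11.92 and 11.93 in Cre+ samples 1 and 2, against 11.55 and 11.72 in Cre- samples 1 and 2. The difference was 0.29 ± 0.12 (SE; limma adjusted p = 0.258), and the other probe sets differed by 0.26 and 0.14. The gene lies on the X chromosome. Xist, transcribed from the inactive X, read 12.75 in Cre- sample 2 and between 4.73 and 5.37 on the other 3 arrays. Kdm5d, on the Y chromosome, read 2.86 in Cre- sample 2 and between 8.23 and 8.37 on the other 3. The sexes thus differ within the Cre- group, and sex is unbalanced between the groups in every comparison made here. The part of sex in the differences was not tested. Cre- sample 2 was nearer to the Cre+ arrays for 2 of the 3 Pgk1 probe sets. Without it the Pgk1 difference was 0.37 (limma adjusted p = 0.238).

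The last steps showed no difference beyond the spread of the arrays. Pkm encodes pyruvate kinase M, and its alternative isoforms are not told apart by the single value per array. It read 9.61 and 9.68 in Cre+ samples, against 9.64 and 9.78 in Cre- samples, a difference of −0.06 ± 0.12 (SE; limma adjusted p = 0.817; 95% interval −0.36 to 0.24). Ldha, the lactate dehydrogenase subunit that favours lactate formation, read 11.41 and 11.30 in Cre+ samples, against 11.44 and 11.41 in Cre- samples. Its difference was −0.07 ± 0.11 (limma adjusted p = 0.773; 95% interval −0.36 to 0.21). Both intervals hold 0.

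Seen along the pathway, the other glycolytic enzymes gave no call. Of 21 listed, 13 passed the filter and 0 were called in limma, with 2 higher and 1 lower at an unadjusted p under 0.05 and a median of 0.14. Of all genes tested, 1.37% were called, 14.3% were higher and 20.6% were higher or lower at that unadjusted level. The same shares apply to the lists that follow. Adpgk, an ADP-dependent glucokinase, differed by 0.53 ± 0.15 (limma adjusted p = 0.137). Ldhb, the lactate dehydrogenase subunit that favours pyruvate formation, read 12.62 and 12.73 in Cre+ samples, against 13.10 and 13.01 in Cre- samples, and differed by −0.38 ± 0.12 (adjusted p = 0.164). All 4 Ldhb probe sets had the same sign.

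Isoforms of phosphofructokinase differed in sign from each other. Pfkp, the platelet-type subunit, differed by −0.21 (limma adjusted p = 0.434) and Pfkm, the muscle-type subunit, by 0.27 (adjusted p = 0.335). The Pfkp probe sets ranged from −0.39 to 0.04. Tpi1, the triose phosphate isomerase, differed by 0.52 ± 0.28 but its groups overlapped, at 8.88 and 9.34 in Cre+ samples 1 and 2 and 8.23 and 8.94 in Cre- samples 1 and 2. Pgam1, the phosphoglycerate mutase, differed by 0.14. Gapdh and Gpi1 were not analysed here. Of 10 other sugar transporters 6 passed the filter, 0 were called (1 higher at an unadjusted p under 0.05) and the median was 0.01. Slc2a8, an intracellular transporter, differed by 0.37 (adjusted p = 0.234) and Slc2a4, the insulin-responsive one, by 0.19 (adjusted p = 0.423).

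**Figure D3:**
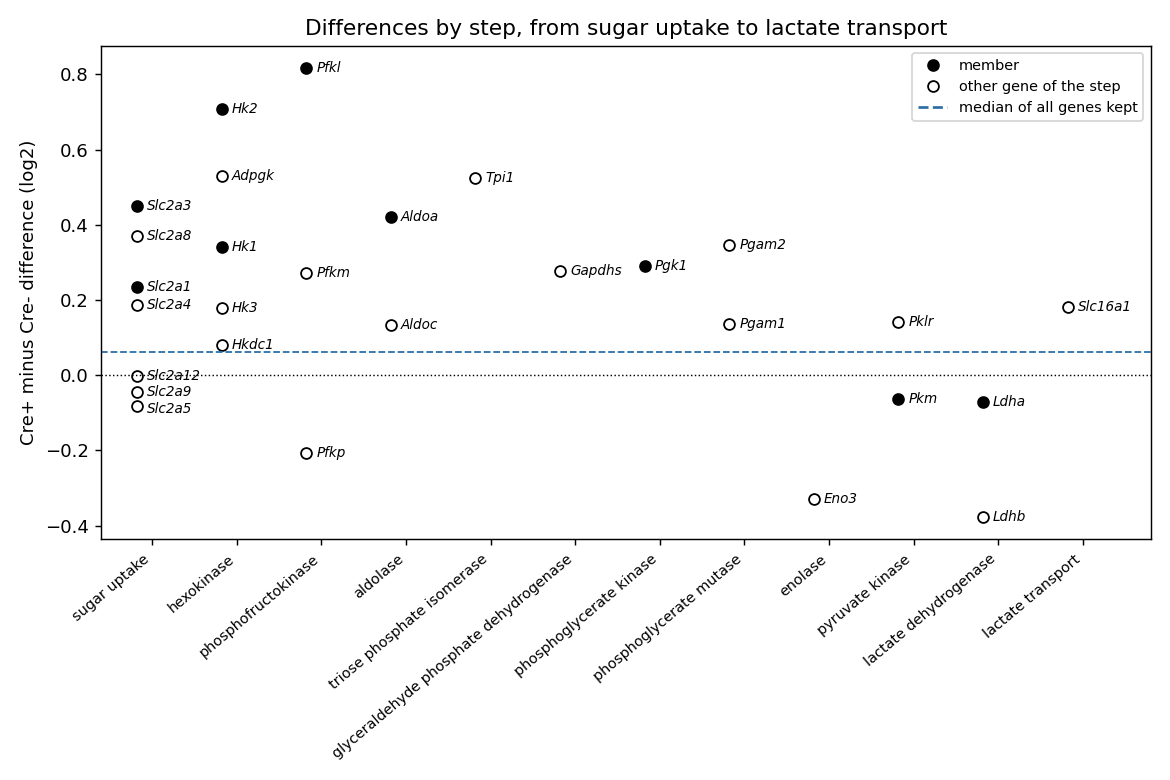
Cre+ minus Cre- difference on the log2 scale of each gene past the filter, placed by its step from sugar uptake to lactate transport; filled circles are the 9 followed genes, open circles other genes of the same step, and the dashed line is the median of all genes (0.06). Pfkl and Hk2 lie highest and Ldhb lowest, and no gene drawn passed in limma.

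Around the pathway, Pck2 was the gene of metabolism that passed. It encodes the mitochondrial phosphoenolpyruvate carboxykinase, which feeds intermediates back into the lower part of glycolysis. Pck2 read 6.82 and 6.66 in Cre+ samples, against 5.50 and 5.55 in Cre- samples, and rose by 1.22 ± 0.12 (SE; limma adjusted p = 0.0228), though its other probe set differed by 0.38. With 1 array left out its adjusted p lay between 0.0546 and 0.192. It was the 1 call among 9 genes of glycolysis control and gluconeogenesis, whose median was −0.11. Pfkfb2, which makes the activator of phosphofructokinase, differed by −0.35 ± 0.14 (adjusted p = 0.254).

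In the pentose phosphate pathway, which branches from glycolysis to make NADPH and ribose, 0 of 6 genes were called in limma and 2 were higher at an unadjusted p under 0.05, with a median of 0.21. Tkt, the transketolase that links it back to glycolysis, read 12.03 and 11.80 in Cre+ samples, against 11.36 and 11.36 in Cre- samples. Its difference was 0.55 ± 0.13 (limma adjusted p = 0.106), with another probe set at −0.15. Pgls, the lactonase, differed by 0.52 ± 0.17 (adjusted p = 0.177).

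Genes for the fate of pyruvate and lactate gave 0 calls of 13 (1 higher at an unadjusted p under 0.05 in limma) and a median of 0.07. Slc16a1, the lactate transporter MCT1, differed by 0.18 with overlapping groups (adjusted p = 0.588). Pdp2, a pyruvate dehydrogenase phosphatase, differed by 0.39 (adjusted p = 0.241) and Dlat, a core subunit of the same complex, by 0.26 (adjusted p = 0.283).

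Among 24 regulators of glucose metabolism 2 rose, 0 fell and 22 were not called, with a median of 0.02. Of all genes tested, 1.11% rose and 0.266% fell. Epas1, which encodes the hypoxia-inducible factor HIF-2α, read 8.85 and 8.64 in Cre+ samples, against 7.34 and 7.25 in Cre- samples. It rose by 1.45 ± 0.13 (SE; limma adjusted p = 0.0181), and its other probe set differed by 0.26. Myc, a transcription factor that binds E-boxes and is known to induce glycolytic genes in activated T cells, read 7.97 and 7.62 in Cre+ samples, against 6.09 and 6.52 in Cre- samples. It rose by 1.49 ± 0.20 (adjusted p = 0.0414), which was 0.0541 with arrays centred on the median of the genes tested.

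Leaving out 1 array raised the adjusted p of Myc to between 0.0672 and 0.209. That of Epas1 was 0.0853 without Cre+ sample 1, 0.0441 without Cre+ sample 2, 0.157 without Cre- sample 1 and 0.127 without Cre- sample 2. Hif1a, the main oxygen-regulated factor, differed by 0.00, but its 4 probe sets ranged from −0.76 to 0.79. Txnip, an inhibitor of glucose uptake, differed by −0.20 with overlapping groups (adjusted p = 0.546), and its paralogue Arrdc4 by 0.54 ± 0.12 (adjusted p = 0.0967), with another probe set at −0.04.

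Other genes of the hypoxia response gave 0 calls of 13 in limma (3 higher and 1 lower at an unadjusted p under 0.05), with a median of 0.05. Ndrg1, a stress-responsive gene, differed by −0.74 ± 0.16 (adjusted p = 0.0888), with all 5 of its probe sets negative. Plin2, a lipid droplet protein gene, differed by 0.48 ± 0.15 (adjusted p = 0.165).

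Promoter sequence is shown for the 2 genes with the largest differences, Pfkl and Hk2, and for Ldha, which differed by −0.07. Each window runs from 250 bases before to 50 bases after an annotated gene start in RefSeq, build GRCm38.p6. Capitals mark ACGTG and GCGTG, the core letters bound by hypoxia-inducible factors, and CACGTG, the E-box, on either strand. An E-box always holds ACGTG on both strands. The windows are chr10:78009758-78010057 (minus strand) for Pfkl, chr6:82774405-82774704 (minus strand) for Hk2 and chr7:46845554-46845853 (plus strand) for Ldha.
Pfkl: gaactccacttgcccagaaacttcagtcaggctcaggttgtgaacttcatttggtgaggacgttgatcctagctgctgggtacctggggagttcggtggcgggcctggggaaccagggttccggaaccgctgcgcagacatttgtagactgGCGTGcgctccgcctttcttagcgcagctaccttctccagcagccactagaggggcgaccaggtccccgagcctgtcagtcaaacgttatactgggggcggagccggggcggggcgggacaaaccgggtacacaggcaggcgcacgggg
Hk2: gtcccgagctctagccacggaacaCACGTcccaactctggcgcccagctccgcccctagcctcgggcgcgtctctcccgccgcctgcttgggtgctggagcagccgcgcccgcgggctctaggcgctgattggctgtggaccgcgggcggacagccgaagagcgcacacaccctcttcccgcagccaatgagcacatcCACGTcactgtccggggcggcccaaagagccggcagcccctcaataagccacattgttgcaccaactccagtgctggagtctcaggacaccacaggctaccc
Ldha: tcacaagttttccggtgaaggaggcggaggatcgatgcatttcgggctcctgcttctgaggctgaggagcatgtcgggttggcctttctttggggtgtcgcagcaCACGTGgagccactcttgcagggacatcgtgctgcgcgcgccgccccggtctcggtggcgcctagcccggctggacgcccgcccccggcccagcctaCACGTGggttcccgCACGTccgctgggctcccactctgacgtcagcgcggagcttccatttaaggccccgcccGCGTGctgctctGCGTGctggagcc

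The Ldha window holds CACGTG at 2 places, that of Hk2 holds ACGTG at 2 places and that of Pfkl holds GCGTG once. In all, 9 of the 10 genes had a RefSeq window, with 16 windows between them, some of which overlap. These are not the 9 genes with measured signals: they include Eno1 and lack Slc2a3, for which no window was given. Windows of Eno1 are among those with GCGTG and those with TGGGAA below. ACGTG was in 8 of the 16 windows (50%), against 19.6% of all 32851 windows, and GCGTG in 8 (50%), against 32.4%. CACGTG was in 1 (6.25%), against 7.15%, and TGGGAA, the core letters bound by Ikaros, in 3 (18.8%), against 25.6%. These are counts of letters on both strands in a short window and show no binding.

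Markers of other cells and of cycling were read on the same arrays, and no association with the glycolysis values was computed. The mean deviation of the 9 genes from their 4-array means was 0.22 and 0.13 in Cre+ samples 1 and 2, against −0.21 and −0.14 in Cre- samples 1 and 2. Over all genes tested it was 0.05 and 0.05 in Cre+ samples, against −0.04 and −0.05 in Cre- samples. The same measure over 27 proliferation genes was −0.11 and 0.76 in Cre+ samples, against −0.82 and 0.17 in Cre- samples. Of the 27, 26 had a difference above 0, with a median of 0.71, which is larger than the 0.34 of the 9 genes, and 21 overlapped between the groups. Over all genes, 61.0% had a difference above 0 and 5486 of 11639 overlapped. In limma 0 were called (3 higher at an unadjusted p under 0.05). Tpi1 had the same order of arrays as proliferation, but 4 arrays are too few to read a likeness of pattern. The part of proliferation in the glycolysis values was not tested.

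Of 16 macrophage and granulocyte markers 11 passed the filter and 2 rose, Ctss by 2.98 and Lyz2 by 1.85, with 0 lower, where 1.11% of all genes rose. At an unadjusted p under 0.05, 5 of the 11 were higher, against 14.3% of all genes, and the median was 0.82. C1qa differed by 1.11, C1qc by 0.95, Tyrobp by 0.82 and C1qb by 0.49 without passing. Others did not differ beyond the spread of the arrays: Csf1r differed by 0.19, Fcer1g by 0.06, Elane by 0.02 and Adgre1 by −0.03, all with overlapping groups. Another Csf1r probe set differed by 1.21. S100a8 read 4.52 and 8.38 in Cre+ samples 1 and 2, against 4.50 and 4.02 in Cre- samples 1 and 2, so it was high in Cre+ sample 2 alone. Their mean signal was 5.36 and 5.81 in Cre+ samples, against 4.78 and 4.77 in Cre- samples. Of the defining markers below the filter, Itgam, Cd14 and Cd68 read between 3.60 and 4.82 on all arrays. S100a9, also below it, read 3.74 and 7.14 in Cre+ samples 1 and 2, against 3.93 and 3.74 in Cre- samples 1 and 2. Mpo, below it too, read 4.39 and 5.10 in Cre+ samples, against 4.13 and 4.48 in Cre- samples. Of 10 dendritic cell markers with a probe set 9 passed the filter and 2 rose, H2-Ab1 by 1.58 and Irf8 by 1.08, where 1.11% of all genes rose. At an unadjusted p under 0.05, 5 of the 9 were higher, against 14.3% of all genes, and the median was 0.89. H2-Aa differed by 2.25 (limma adjusted p = 0.0540) and H2-Eb1 by 1.68 (adjusted p = 0.0531). Cd74 differed by 0.89, Itgax by 0.27 and Batf3 by 0.14 without passing. Siglech differed by 0.01 and Flt3 by −0.16, both with overlapping groups. The mean signal of the list was 6.16 and 6.20 in Cre+ samples, against 5.55 and 5.27 in Cre- samples. With 1 array left out, the number of calls lay between 0 and 2 in the macrophage list and between 0 and 1 in the dendritic list. The dendritic list had 0 calls with suffix-free probe sets alone or with arrays centred on the median of the genes tested. It had 1 when the filter was raised to the 60th percentile. Its calls rose to 4 without the signal filter, with an intensity trend or with each array centred on its own median. They were 3 with a robust prior, array weights or the mean of all probe sets, and 5 when blocked by sample number. With all 4 arrays, the macrophage list kept 2 to 5 calls under every setting, the 5 under the block. The part of macrophage, granulocyte and dendritic cell RNA in the glycolysis values was not tested. In bulk RNA a change in the share of a cell type and a change of RNA per cell cannot be told apart.

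Stromal and epithelial markers gave 1 rise of 6, Pdgfrb by 1.05 (another probe set by 3.24), where 1.11% of all genes rose. That call was lost with arrays centred on the median of the genes tested, with the filter at the 60th percentile and without Cre- sample 1 or Cre- sample 2. The mean signal of all 12 was 5.19 and 5.02 in Cre+ samples, against 4.60 and 4.66 in Cre- samples, while their median difference was −0.03. Col1a2 differed by 4.52 ± 1.07 without passing (limma adjusted p = 0.107), while Col1a1 and Col3a1 stayed between 2.72 and 3.96. Krt8 differed by 0.43 without passing. Epcam, Pecam1 and Krt5 differed by −0.13, −0.04 and −0.004, all with overlapping groups. Of 3 B cell markers and 1 erythroid marker past the filter 0 were called in limma (1 and 0 at an unadjusted p under 0.05). Ms4a1 differed by 0.71 and Pax5 by 0.18. Cd79b, the brightest of the 3, differed by −0.08 with overlapping groups. The erythroid marker Alas2 differed by −0.03. The double positive list gave 0 calls of 11 (1 higher and 3 lower at an unadjusted p under 0.05), with a median of −0.19, Cd1d1 at −0.66 and Cd8a at −0.30. Another Cd8a probe set differed by 0.10. The 1 higher was Cd3e, at 0.41, with both Cre+ arrays above both Cre- arrays. Cd3d and Dntt differed by 0.004 and 0.009 with overlapping groups, and the difference was below 0 for 8 of the 11.

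**Figure D4:**
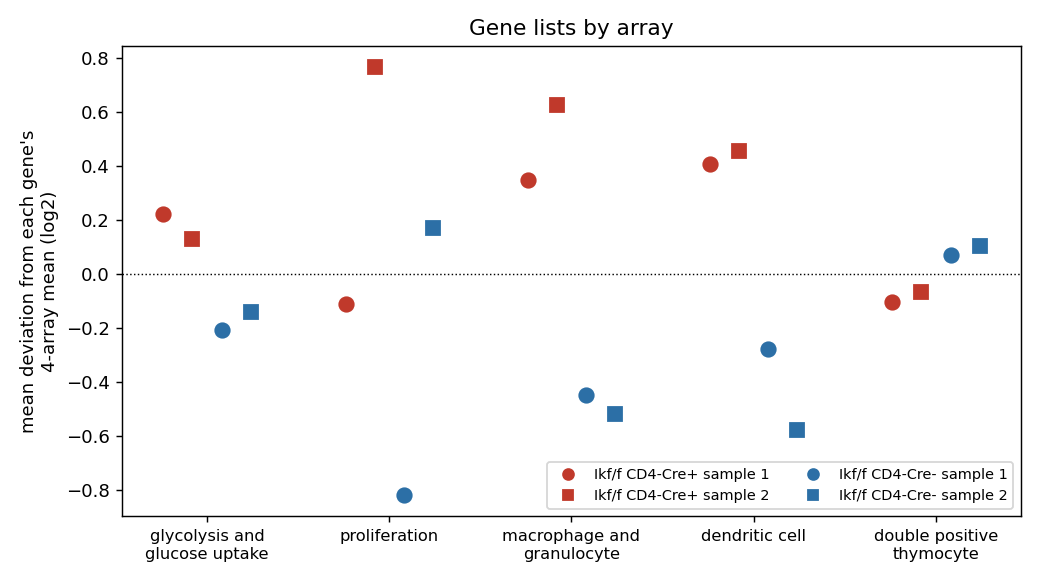
Mean deviation of the genes of a list from each gene's own 4-array mean (log2), by list and array, Cre+ in red and Cre- in blue. The glycolysis and glucose uptake genes separate the groups, from −0.21 to 0.22. The macrophage and granulocyte and dendritic cell lists also separate them, and the double positive thymocyte list does so the other way. Proliferation runs from −0.82 in Cre- sample 1 to 0.76 in Cre+ sample 2 with the groups interleaved.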

How the data were processed

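The authors deposited log2 values computed with RMA (background subtraction, normalization across arrays and summary of each probe set), per the submitters' processing notes. No version is stated, and base 2 was taken because RMA returns it. The label amplification had 2 cycles, and several amounts of starting RNA are listed without a sample, per the labels' protocols. No batch is named in the labels. RMA compresses low signals, and the number of arrays limits the precision.

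From these values, each of 18193 genes was represented by its single-symbol probe set with the highest mean, and the 11639 genes with a mean of at least 4.76 were fitted with limma 3.58.1 in R 4.3.3 (lmFit, eBayes, two-sided, Benjamini-Hochberg over all 11639, call at an adjusted p under 0.05). The 2 residual degrees of freedom were joined by a prior of 3.59. The 20967 single probe sets past the filter were fitted likewise, and 182 of them passed (0.868%). Differences are Cre+ minus Cre-. Mice are separate animals. No array copied another (at most 166 identical values of a pair).

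The members and lists were chosen with earlier results of these data known. The rule named every member, Ikzf1, a fixed set of reference genes with a probe set, and in each list the called genes and up to 2 with the smallest p; further markers, named to show levels, were chosen after their values were seen. No adjustment over a list alone and no list test was made. Counts of list genes are of members past the filter. Gene symbols came from the platform annotation, checked by Entrez identifier against RefSeq (34741 of 34945 matched). The fit was tested on simulated data. The fit was repeated under other filters, with other probe sets for a gene, with a trended or robust prior, after centring or weighting arrays, blocked by sample number, and without each array in turn. Figures used matplotlib 3.10.9.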

Additional observations from a re-analysis of the deposited data

How the results depend on the processing

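None of the 9 glycolysis and glucose uptake genes lost a call, since none was called. The number called was 1, Pfkl, without the signal filter, with an intensity trend and with a robust prior, and 0 under the other filters, probe set choices and scalings and with any 1 array left out. With suffix-free probe sets alone only 5 of the genes remained, Pfkl differed by −0.41, Slc2a1 by −0.33 and the median by −0.062. With the mean of all probe sets Slc2a1 differed by −0.056. Pkm differed by 0.0101 without Cre- sample 2, and by −0.03 to −0.13 without each of the others. The cause of these shifts was not tested. Of 253 recomputed differences of the genes and their further probe sets, 4 changed sign. Centring on the median of the genes tested, chosen after seeing the data, moved the median of all genes to −0.07, against 0.06, and that of the 9 genes to 0.21, left 123 genes called, 75 of them higher (129 of 160 as deposited), and took Pfkl to 0.69 (limma adjusted p = 0.0724) and Hk2 to 0.58 (0.108).

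The number of genes called over the whole table was 90 with the filter at the 60th percentile, 104 with suffix-free probe sets alone, 245 with a robust prior, and between 3 and 99 with 1 array left out. Calls among the 7 lists of related genes, 3 in all, were 1 with suffix-free probe sets alone and 0 to 1 with 1 array left out. On the given strand alone ACGTG was in 4, GCGTG in 5 and TGGGAA in 1 of the 16 promoter windows, since fewer strands were read.

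Samples of the groups share numbers, but nothing in the labels pairs them. Deviations of same-numbered arrays correlated at 0.154 across probe sets. With the sample number as a replicate block 821 genes were called, and 2 of the 9, Pfkl (0.82, limma adjusted p = 0.0224) and Hk2 (0.71, adjusted p = 0.0386). The Pfkl probe set at 0.70 also passed (0.0361). In the proliferation list 19 of 27 were called with the block.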
